A study of Homo sapiens with 18 samples.

Results

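The genes described here encode the neuronal cytoskeleton and proteins of neurite outgrowth. They are the neurofilament genes NEFL, NEFM and INA, the neuronal tubulin gene TUBB3, the microtubule-associated protein genes MAPT, MAP2, MAP1B and DCX, and the growth cone genes STMN2 and GAP43. The 10 genes, of 19775 named on the array, were chosen by name, and every probe set that the array's annotation assigned to them was taken, 26 of the 54675 probe sets on the array. Expression was measured on 18 Affymetrix arrays in SH-SY5Y, a human neuroblastoma cell line, and all cells had received 10 μM retinoic acid for 7 days followed by 24 h without it. Cocaine at 0, 1 or 5 μM was then given for 30 min, and cells were collected at 6 or 24 h. Each of the 6 groups had 3 arrays, and each array carried RNA pooled from 3 of the 9 dishes of its condition. Some label fields of the 5 μM arrays describe them as non-treated, and the dose in their titles was followed. The pools came from dishes of a single cell line, so the p-values measure the spread between pools of dishes. In bulk RNA, fewer cells of a kind and less RNA per cell cannot be told apart.

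Neurofilaments are intermediate filaments that fill axons and are built from light, medium and heavy chains together with α-internexin, the product of INA. Microtubules are polymers of tubulin, which tau, MAP2, MAP1B and doublecortin bind and stabilise, whereas stathmin-2 holds tubulin dimers and promotes disassembly in growth cones. GAP43 is a membrane protein of growing axon tips. Neuroblastoma cells treated with retinoic acid extend neurites, and these genes are widely used as markers of that change.

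All 10 genes were expressed above the threshold of log2(40), 5.32 on the log2 scale, in both time series. Of the 26 probe sets, 23 passed it at 6 h and 23 at 24 h. Those that did not pass were MAPT 203930_s_at and 233117_at and NEFM 223902_at, with mean log2 signals of 4.04, 3.39 and 3.94 at 6 h. Every gene except NEFM and INA had at least 2 probe sets above it. Both TUBB3 probe sets, MAPT 203928_x_at and NEFL 221801_x_at were of the _x_at type, which can bind transcripts of related genes. Of 9 markers of sympathoadrenal neuroblastoma cells found on the array, 8 were above the threshold at both times. The exception was TH, the rate-limiting enzyme of dopamine synthesis, whose probe set 208291_s_at had a mean log2 signal of 3.50 at 6 h and 3.87 at 24 h. Of 5 glial markers found, 2 were above it, and all 5 proliferation markers were.

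Arrays within the untreated groups differed in genes that retinoic acid induces. CYP26A1, a retinoic acid-degrading enzyme, read 10.69 and 10.99 on the log2 scale on untreated replicates 2 and 3 at 6 h, against 5.01 on untreated replicate 1 and 4.95 to 5.61 on the 6 treated arrays. At 24 h, untreated replicate 3 stood at 9.55, and the other arrays lay between 4.92 and 6.31. The mean log2 signal of 6 retinoic acid response genes at 24 h was 10.94 on that array. It was 9.64 on untreated replicate 2, 9.65 on 5 μM replicate 3 and 8.91 to 9.34 on the others. At 6 h the 3′ minus 5′ signal of ACTB, which reflects RNA quality (log2 scale), was also 0.548 to 1.12 without cocaine and 0.493 to 0.539 at 5 μM (difference −0.336, exact permutation p = 0.1, two-sided, the smallest that 3 arrays against 3 allow). The same measure of GAPDH overlapped, with 0.215 to 0.255 without cocaine and 0.19 to 0.242 at 5 μM (difference −0.0221, exact permutation p = 0.3). The hybridisation control bioD minus cre was −1.04 to −0.929 without cocaine and −1.55 to −1.37 at 5 μM (difference −0.495, exact permutation p = 0.1). The controls bioB and bioC minus cre overlapped between these groups (differences −0.0318 and −0.0529, exact permutation p = 0.6 and 0.5). The part of these differences in the values below was not tested. Genes outside the 10 are given with all arrays only. For the 10 genes, differences at 5 μM at 6 h are also given without untreated replicates 2 and 3. This was done for the probe sets called with the replicate block and for some others, and the rest may also depend on untreated replicates 2 and 3. Leaving them out keeps 1 untreated array, replicate 1, which is assumed to vary like the arrays of the other groups, and with the replicate block the estimate then rests mainly on the arrays numbered 1. These values are given for their direction and size, and a call kept or lost there is no test of stability.

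Among the 10 genes, the replicate number separated the arrays more than the cocaine dose did. The variation of each probe set over the 9 arrays of a time was divided into a share that went with dose and a share that went with replicate number. At 6 h, the median share with replicate number was 79.6% over the 23 probe sets and 35.5% over all 22455 probe sets tested, whereas the median share with dose was 12.2% and 31.6%. At 24 h, the shares with replicate number were 65.2% and 41%, and those with dose were 12.4% and 21.1%. The replicate share exceeded the dose share in 20 of the 23 probe sets at 6 h (87%, against 52.3% of all) and in 17 at 24 h (73.9%, against 63.9%). What distinguished the dishes behind each replicate number is not given in the sources used here.

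**Figure D1:**
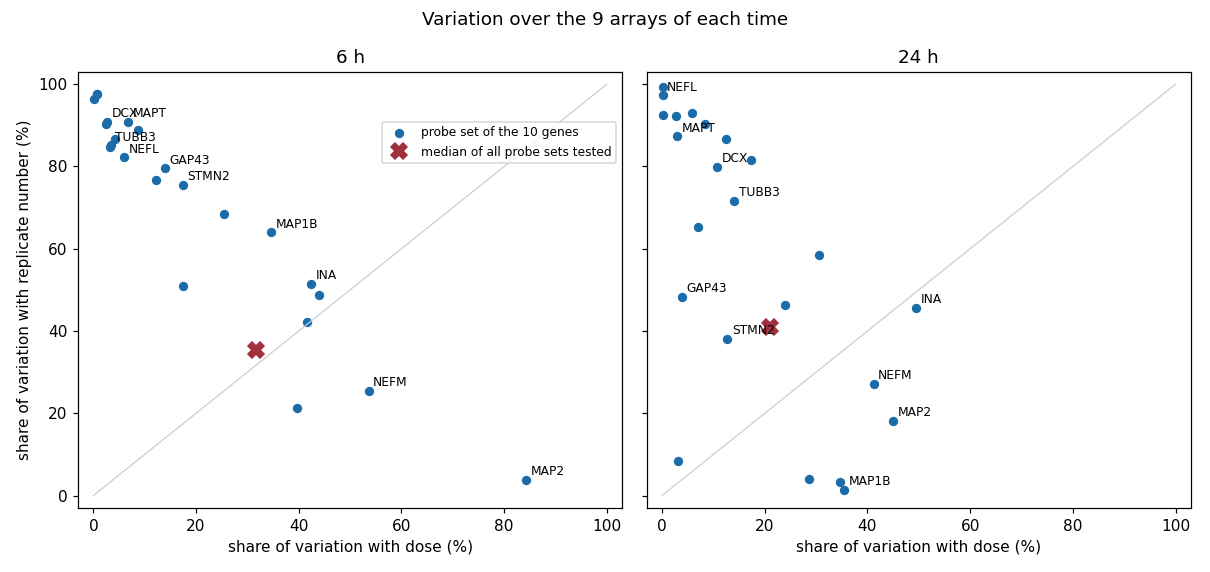
Share of the variation over 9 arrays that went with cocaine dose (x axis, %) and with replicate number (y axis, %) at 6 h and 24 h. Points are the 23 probe sets, the labels mark the brightest probe set of each gene, the cross is the median of all probe sets tested, and the line marks equal shares. At 6 h the brightest MAP2 probe set (84.3% with dose) lies farthest from the others.

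The neurofilament light chain gene NEFL showed this at both times. Its probe set 221805_at read 10.86, 10.22 and 9.75 on untreated replicates 1, 2 and 3 at 6 h, 10.71, 10.46 and 10.12 at 1 μM, and 10.71, 10.49 and 10.06 at 5 μM. At 24 h it read 10.91, 10.75 and 10.03 without cocaine, 10.88, 10.80 and 10.02 at 1 μM, and 10.82, 10.80 and 9.96 at 5 μM. Replicate 3 was thus lowest at every dose and time, and the replicate share reached 99.4% at 24 h. Replicate 1 was above replicate 3 at all 3 doses in 20 of the 23 probe sets at 6 h (87%, against 24.4% of all probe sets tested) and in 15 at 24 h (65.2%, against 24.6%). The mean gap at 6 h was 0.78 for NEFL 221805_at, 0.77 for MAPT 225379_at and 0.54 for DCX 204850_s_at on the log2 scale. The probe sets without this order at 6 h were those of NEFM and MAP2.

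TUBB3 had another order at 6 h, with replicate 2 lowest. Its probe set 213476_x_at read 12.52, 11.94 and 12.26 without cocaine, 12.44, 12.14 and 12.37 at 1 μM, and 12.37, 12.10 and 12.34 at 5 μM. MAPT, which encodes tau, had replicate 1 apart from the other two at 6 h: 203928_x_at read 8.16, 7.46 and 7.40 without cocaine, 8.19, 7.64 and 7.60 at 1 μM, and 8.18, 7.69 and 7.69 at 5 μM. At 24 h, MAPT 203928_x_at read 8.43, 8.30 and 8.06 without cocaine, 8.57, 8.20 and 7.75 at 1 μM, and 8.41, 8.31 and 7.75 at 5 μM, with replicate 3 lowest.

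Other cell markers also followed the replicate number. The mean log2 signal of the 9 markers of mesenchymal, substrate-adherent cells, 6 of them above the threshold, was 6.90 to 6.95 on replicates 1 and 2 at 6 h and 6.46 to 6.70 on replicate 3. The mean of the 8 general neuronal markers was 9.84 to 9.95 on all 9 arrays at 6 h, and highest on replicate 3 at each dose. The part of cell composition in the replicate differences was not tested. As a description over 9 arrays, the genes outside these lists whose signal was most like the mean of the 10 genes were AFF1 (Pearson r = 0.991), ACTN1 (r = 0.99) and NR2F1 (r = 0.984) at 6 h, and NELFCD (r = 0.988), TIMP3 (r = 0.988) and SFMBT2 (r = 0.986) at 24 h. The points share their arrays and fall into clusters by replicate number.

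**Figure D2:**
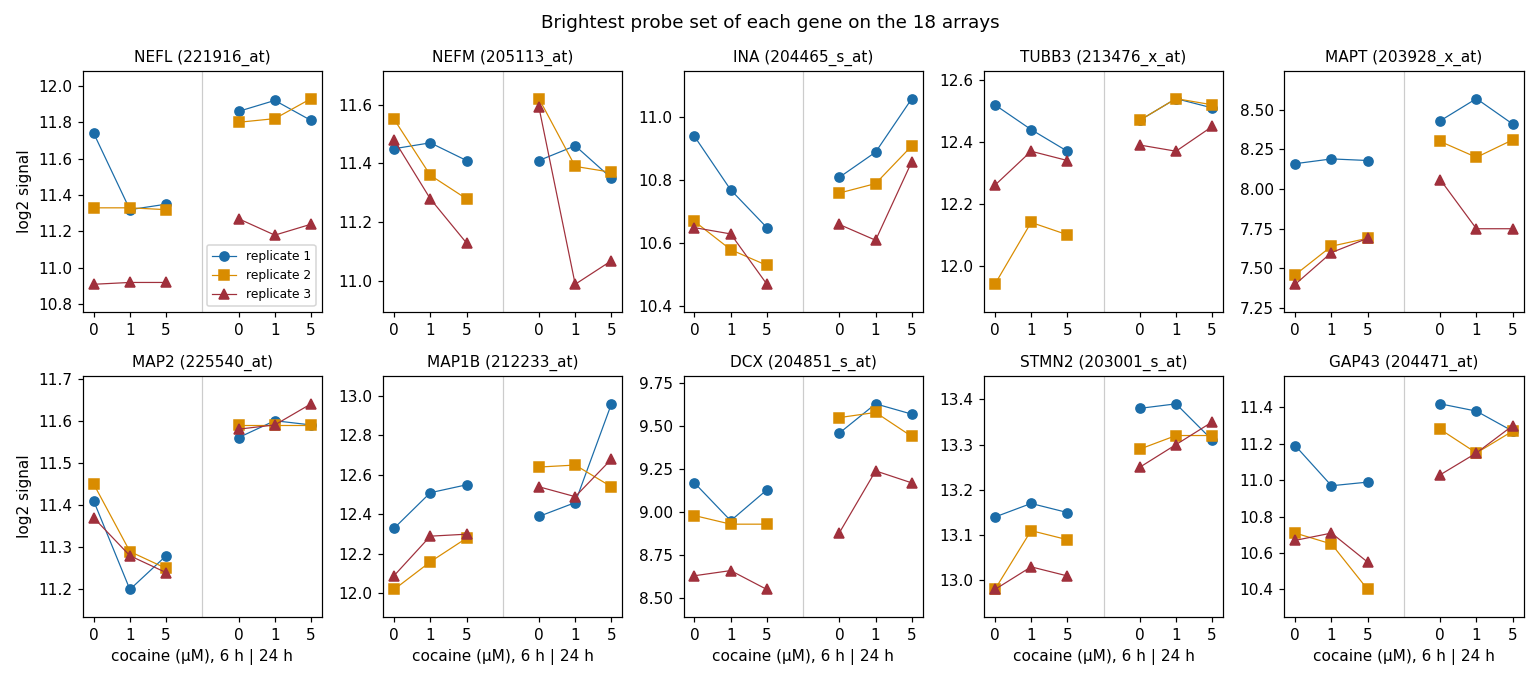
Log2 signal (y axis) of the brightest probe set of each gene by cocaine dose (x axis, μM), with 6 h on the left and 24 h on the right of each panel. Symbols are arrays, and lines join arrays with the same replicate number. NEFL replicate 3 lies between 10.91 and 11.27, below the other replicates at every dose, whereas the 3 untreated MAP2 arrays at 6 h lie above the 6 treated ones.

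The main comparison asked whether the genes differed between cells exposed to 5 μM cocaine and unexposed cells at 6 h. With limma on the 9 arrays, 0 of the 23 probe sets passed an adjusted p of 0.10, against 2.98% of all probe sets tested. The smallest adjusted p was 0.179, for MAP2 225540_at, and 3 probe sets had an unadjusted limma p under 0.05 (17.2% over all probe sets). The median log2 difference was 0.00 over the 23 probe sets and −0.0159 over all.

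Arrays with the same replicate number moved together, and limma made other calls when the replicate number was entered as a block. Then 4 probe sets rose and 5 fell at 5 μM, of 7 genes (39.1% of the 23), against 7.75% of all probe sets called higher and 10.9% lower. The higher ones were all 3 MAP1B probe sets and MAPT 203928_x_at, and the lower ones were INA, NEFM, MAP2 225540_at, NEFL 221801_x_at and GAP43 204471_at. The count depended on single arrays: leaving out 1 array gave 0 to 9 calls with the block, and it was 0 without untreated replicate 2, without 5 μM replicate 2 and without 5 μM replicate 3. With untreated replicate 1 as the only untreated array, the blocked fit called 2 probe sets, both of NEFL.

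INA, whose product α-internexin coassembles with neurofilaments, was lower at 5 μM at 6 h. Its probe set 204465_s_at read 10.94, 10.67 and 10.65 on the untreated arrays, 10.77, 10.58 and 10.63 at 1 μM, and 10.65, 10.53 and 10.47 at 5 μM. The untreated and 5 μM values did not overlap, although their nearest arrays were equal to the decimals shown (10.65). The differences by replicate number were −0.29, −0.14 and −0.18. The mean difference was −0.20 on the log2 scale (fold 0.868, SE 0.0915, limma adjusted p = 0.299; with the block, SE 0.0482 and adjusted p = 0.0478). Without untreated replicates 2 and 3 it was −0.39 (limma adjusted p = 0.257), and −0.29 with the block (adjusted p = 0.116).

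The sequence upstream of the INA start is shown because the INA differences had opposite signs at the 2 times, and that of MAP1B because its 3 probe sets were called in 1 direction at 6 h. Sequences are from RefSeq on GRCh38.p14, 250 bases before the annotated start on the + strand, with GC boxes (GGGCGG, or CCGCCC on the other strand) in capitals. INA is at chr10:103276888-103277137, and MAP1B, at the more upstream of its 2 starts, at chr5:72107225-72107474.
INA: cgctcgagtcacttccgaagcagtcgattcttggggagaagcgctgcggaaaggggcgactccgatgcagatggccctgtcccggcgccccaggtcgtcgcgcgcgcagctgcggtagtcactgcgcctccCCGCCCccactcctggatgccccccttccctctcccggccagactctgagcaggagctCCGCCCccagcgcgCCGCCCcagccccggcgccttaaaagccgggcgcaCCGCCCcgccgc
MAP1B: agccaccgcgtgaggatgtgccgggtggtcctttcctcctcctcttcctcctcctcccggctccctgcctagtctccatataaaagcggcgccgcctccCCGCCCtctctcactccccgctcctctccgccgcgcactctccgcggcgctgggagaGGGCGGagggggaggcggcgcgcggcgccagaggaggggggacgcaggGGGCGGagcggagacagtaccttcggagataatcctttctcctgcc
INA held 4 GC boxes and MAP1B 3, on both strands together, and 42.6% of the 35116 upstream windows of this length held at least 1. MAP1B also held a TATA box (TATAAA), as did 10.7% of all windows. Upstream windows of 6 of the 10 genes were found, namely DCX, GAP43, INA, MAP1B, MAP2 and TUBB3. The GC content was 72.8% for INA and 70% for MAP1B, against a median of 58% over all windows. These matches are a description of the letters.

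MAP2, a microtubule-associated protein of dendrites and cell bodies, was lower in treated cells at 6 h by its brightest probe set. MAP2 225540_at read 11.41, 11.45 and 11.37 without cocaine, 11.20, 11.29 and 11.28 at 1 μM, and 11.28, 11.25 and 11.24 at 5 μM. All 3 untreated arrays were above all 6 treated ones. The difference at 5 μM was −0.15 (fold 0.899, SE 0.0502, limma adjusted p = 0.179; with the block, 0.0811). It was −0.16 without untreated replicates 2 and 3 (adjusted p = 0.419), and −0.17 with the block as well (adjusted p = 0.231). The other probe set, 210015_s_at, read 7.59, 7.18 and 7.48 without cocaine and 7.61, 7.65 and 7.61 at 5 μM, a difference of 0.21 in the other direction that was not called (limma adjusted p = 0.324; with the block, 0.163). Without untreated replicates 2 and 3 the difference of 210015_s_at was 0.03, or 0.02 with the block. The direction for MAP2 thus depended on the probe set with all arrays, and without these arrays 210015_s_at hardly differed.

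NEFM, the medium chain, read 11.45, 11.55 and 11.48 without cocaine, 11.47, 11.36 and 11.28 at 1 μM, and 11.41, 11.28 and 11.13 at 5 μM by 205113_at. The untreated and 5 μM values did not overlap. The difference was −0.22 (fold 0.856, SE 0.083, limma adjusted p = 0.225; with the block, 0.0763). It was −0.18 without untreated replicates 2 and 3 and −0.06 with the block as well (limma adjusted p = 0.603 and 0.635).

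NEFL gave different answers by probe set when all arrays were used. NEFL 221801_x_at read 8.43, 8.68 and 7.73 without cocaine, 7.79, 7.92 and 7.39 at 1 μM, and 7.98, 7.87 and 7.51 at 5 μM, so that each replicate number was lower in treated cells while the groups overlapped. Its difference at 5 μM was −0.50 (fold 0.709, SE 0.246, limma adjusted p = 0.343; with the block, SE 0.103 and adjusted p = 0.0364), and −0.51 with the block and without untreated replicates 2 and 3 (adjusted p = 0.0974). The brightest probe set, 221916_at, read 11.74, 11.33 and 10.91 without cocaine and 11.35, 11.32 and 10.92 at 5 μM, differences of −0.39, −0.02 and 0.01 by replicate number. Its difference was −0.13 (limma adjusted p = 0.792; with the block, 0.357), and −0.40 with the block and without untreated replicates 2 and 3 (adjusted p = 0.0896), a value that rests on the replicate 1 pair. NEFL 221805_at differed by 0.14, in the other direction (limma adjusted p = 0.839; with the block, 0.383). Without untreated replicates 2 and 3 its difference was −0.44, or −0.16 with the block. The estimates of the NEFL probe sets were then all negative, on 1 untreated array.

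MAP1B, a microtubule-associated protein of growing axons, had 3 probe sets, which all passed in the blocked fit, each higher at 5 μM. MAP1B 212233_at read 12.33, 12.02 and 12.09 without cocaine, 12.51, 12.16 and 12.29 at 1 μM, and 12.55, 12.28 and 12.30 at 5 μM. The difference was 0.23 (fold 1.17, SE 0.12, limma adjusted p = 0.363; with the block, SE 0.0426 and adjusted p = 0.03). MAP1B 226084_at read 11.56, 11.21 and 11.18 without cocaine, 11.76, 11.37 and 11.58 at 1 μM, and 11.82, 11.32 and 11.40 at 5 μM. Its difference was 0.20 (limma adjusted p = 0.57; with the block, 0.091). In both probe sets each replicate number was higher at 5 μM, although the groups overlapped.

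MAP1B 214577_at had the largest difference of the 23 probe sets. It read 9.29, 8.13 and 8.28 without cocaine, 9.01, 8.63 and 8.89 at 1 μM, and 9.54, 9.12 and 9.10 at 5 μM. Untreated replicates 2 and 3, the arrays with high CYP26A1, were the lowest of all 9. The difference was 0.69 (fold 1.61, SE 0.282, limma adjusted p = 0.262; with the block, SE 0.166 and adjusted p = 0.0506). Without untreated replicates 2 and 3 it was −0.04 without the block and 0.19 with it (limma adjusted p = 0.961 and 0.388). For 212233_at the values without these arrays were 0.04 and 0.23 (limma adjusted p = 0.94 and 0.157), and for 226084_at −0.05 and 0.20 (adjusted p = 0.954 and 0.265).

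MAPT and GAP43 passed with the block by 1 probe set each. MAPT 203928_x_at differed by 0.18 (SE 0.243, limma adjusted p = 0.749; with the block, SE 0.057 and adjusted p = 0.0917). Without untreated replicates 2 and 3 it differed by −0.30, in the other direction, and by 0.05 with the block as well. The other MAPT probe sets above the threshold differed by −0.05, 0.17 and 0.00 and were not called. Without these arrays they differed by −0.47, −0.33 and −0.53, or by −0.15, 0.06 and −0.11 with the block. GAP43 204471_at read 11.19, 10.71 and 10.67 without cocaine, 10.97, 10.65 and 10.71 at 1 μM, and 10.99, 10.40 and 10.55 at 5 μM, and was lower at 5 μM in each replicate number. Its difference was −0.21 (SE 0.184, limma adjusted p = 0.605; with the block, SE 0.0662 and adjusted p = 0.0928). Without untreated replicates 2 and 3 it was −0.54, and −0.28 with the block as well. The other GAP43 probe sets, 216963_s_at and 216967_at, differed by 0.13 and 0.17 and were not called. Without these arrays they differed by −0.39 and −0.08, or by −0.09 and 0.16 with the block.

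DCX, STMN2 and TUBB3 passed in neither fit. DCX 204851_s_at, of the doublecortin gene of migrating neurons, read 9.17, 8.98 and 8.63 without cocaine and 9.13, 8.93 and 8.55 at 5 μM, a difference of −0.05 (95% interval with the block −0.20 to 0.09). STMN2 203001_s_at read 13.14, 12.98 and 12.98 without cocaine and 13.15, 13.09 and 13.01 at 5 μM, a difference of 0.05 (95% interval with the block −0.05 to 0.15). TUBB3 213476_x_at differed by 0.03 (95% interval with the block −0.13 to 0.18). Without untreated replicates 2 and 3 the differences were −0.30 for DCX 204851_s_at, −0.05 for STMN2 203001_s_at and −0.26 for TUBB3 213476_x_at. With the block as well they were −0.12, 0.02 and −0.14.

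**Figure D3:**
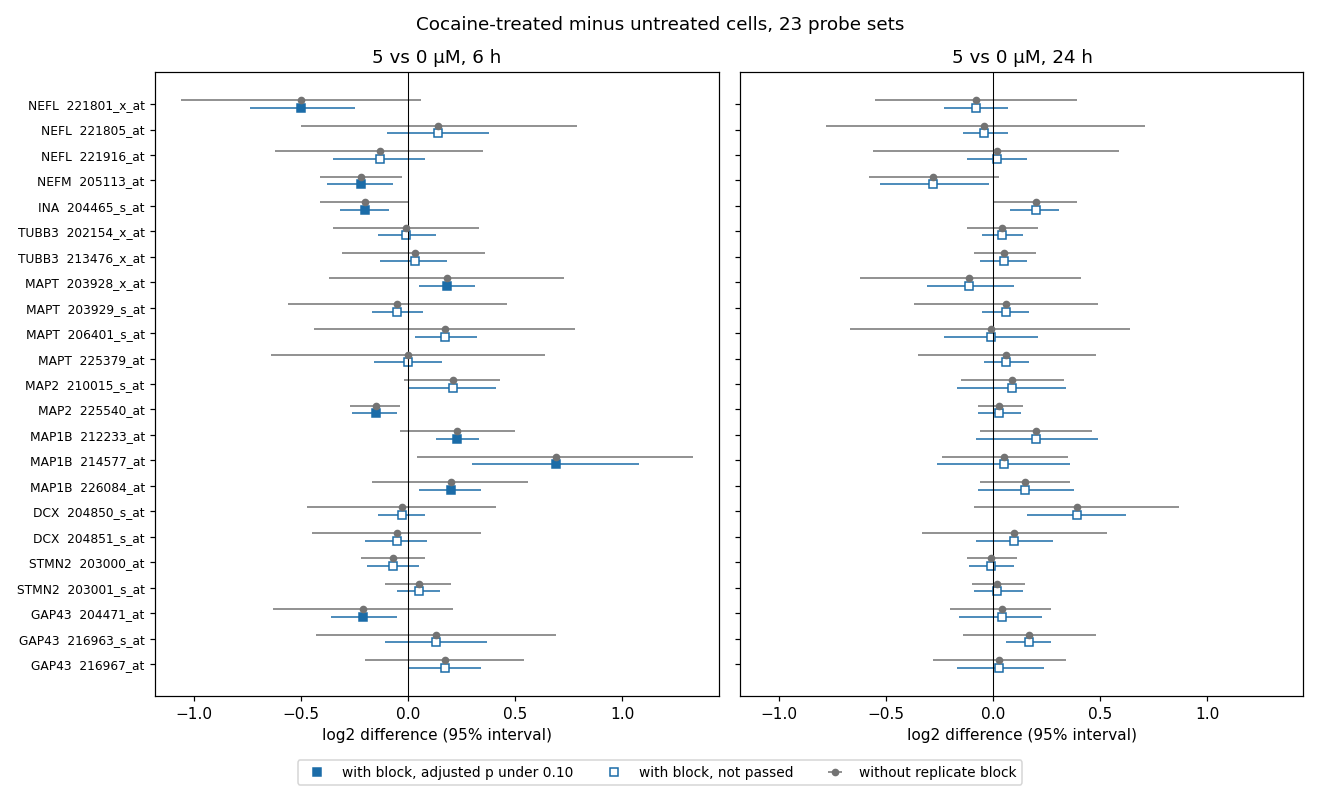
Log2 difference between 5 μM and 0 μM cocaine (x axis) for the 23 probe sets (y axis) at 6 h and 24 h, with 95% intervals, from limma without (grey circles) and with (blue squares) the replicate number as a block. Filled squares passed an adjusted p of 0.10, which 9 probe sets did at 6 h and 0 at 24 h.

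The values of the groups did not overlap in 4 of the 23 probe sets between 0 and 5 μM at 6 h: MAP2 210015_s_at was higher, and INA, MAP2 225540_at and NEFM were lower. For INA the gap was smaller than the decimals shown. Over all probe sets, 8.09% were higher and 13.1% lower without overlap, so the count for these genes was near the background.

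At 1 μM, again against the same untreated arrays, 0 of the 23 probe sets passed at 6 h, as did 0% of all probe sets tested, and 2 had an unadjusted limma p under 0.05 (14.3% over all). With the block, 3 were higher and 2 lower, against 5.11% and 7.44% of all. They were MAP1B 226084_at (0.25, adjusted p = 0.0672), MAP1B 212233_at (0.17, adjusted p = 0.0688), MAPT 206401_s_at (0.23, adjusted p = 0.0775), NEFL 221801_x_at (−0.58, adjusted p = 0.0446) and MAP2 225540_at (−0.16, adjusted p = 0.0952), all from limma with the block. With untreated replicate 1 as the only untreated array, the blocked estimates were −0.60 for NEFL 221801_x_at and −0.40 for NEFL 221916_at (limma adjusted p = 0.0676 and 0.0686), and these 2 were called. Leaving out 1 array gave 0 to 9 calls here too. Between 5 and 1 μM, 0 of the 23 passed without or with the block (0% of all in both), and 0 had an unadjusted p under 0.05 (6.45% over all).

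At 24 h, 0 of the 23 probe sets passed between 5 and 0 μM, without the block (0.0123% of all probe sets tested) or with it (0.00823%), and 0 had an unadjusted limma p under 0.05 without it (7.2% over all). The differences ran from −0.28 for NEFM to 0.39 for DCX 204850_s_at, with a median of 0.04. DCX 204850_s_at read 8.91, 8.90 and 8.22 without cocaine, 9.10, 9.13 and 8.69 at 1 μM, and 9.35, 9.00 and 8.85 at 5 μM. Each replicate number was higher at 5 μM, and the difference did not pass (SE 0.213, limma adjusted p = 0.745; with the block, SE 0.0993 and adjusted p = 0.18). Its lowest array was untreated replicate 3, the array with high CYP26A1, and without that array the difference was 0.16 (limma adjusted p = 0.865), or 0.28 with the block (adjusted p = 0.41).

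NEFM at 24 h read 11.41, 11.62 and 11.59 without cocaine, 11.46, 11.39 and 10.99 at 1 μM, and 11.35, 11.37 and 11.07 at 5 μM. The 5 μM values lay below the untreated ones without overlap, by 0.28 in the mean (limma adjusted p = 0.713; with the block, 0.291). The differences by replicate number were −0.07, −0.25 and −0.52, the largest against untreated replicate 3, the array with high CYP26A1. MAP1B 212233_at read 12.39, 12.64 and 12.54 without cocaine and 12.96, 12.54 and 12.68 at 5 μM, a difference of 0.20 that replicate 1 led and replicate 2 opposed (limma adjusted p = 0.754; with the block, 0.459). Without overlap between 0 and 5 μM at 24 h, 2 probe sets were higher and 1 lower, against 5.94% and 4.51% of all. At 1 μM, 0 of the 23 passed at 24 h without or with the block (0% of all in both). Between 5 and 1 μM, 0 passed without the block (0.00823% of all) or with it (0.00411%).

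For the brightest probe sets of MAP2 and NEFL, the 24 h differences were small. MAP2 225540_at read 11.56, 11.59 and 11.58 without cocaine and 11.59, 11.59 and 11.64 at 5 μM, a difference of 0.03 (95% interval with the block −0.07 to 0.13), where the untreated arrays had been the highest at 6 h. NEFL 221916_at read 11.86, 11.80 and 11.27 without cocaine and 11.81, 11.93 and 11.24 at 5 μM, a difference of 0.02 (95% interval with the block −0.12 to 0.16). NEFL 221801_x_at, the probe set called at 6 h, read 9.01, 8.99 and 8.55 without cocaine and 8.93, 9.02 and 8.37 at 5 μM, a difference of −0.08 (95% interval with the block −0.23 to 0.07). In both NEFL probe sets replicate 3 was again the lowest at each dose.

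The brightest probe sets of the growth cone genes and TUBB3 differed by 0.05 or less between 5 and 0 μM at 24 h. STMN2 203001_s_at read 13.38, 13.29 and 13.25 without cocaine and 13.31, 13.32 and 13.35 at 5 μM, a difference of 0.02 (95% interval with the block −0.09 to 0.14). GAP43 204471_at read 11.42, 11.28 and 11.03 without cocaine and 11.27, 11.27 and 11.30 at 5 μM, so that the spread between replicates was wider without cocaine, and the difference was 0.04 (95% interval with the block −0.16 to 0.23). TUBB3 213476_x_at read 12.47, 12.47 and 12.39 without cocaine and 12.51, 12.52 and 12.45 at 5 μM, a difference of 0.05 (95% interval with the block −0.06 to 0.16).

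The INA differences had opposite signs at 6 and 24 h. At 24 h it read 10.81, 10.76 and 10.66 without cocaine, 10.89, 10.79 and 10.61 at 1 μM, and 11.06, 10.91 and 10.86 at 5 μM. The 5 μM arrays were above all untreated ones, and the differences by replicate number were 0.24, 0.15 and 0.20 (mean difference 0.20, fold 1.15, SE 0.0867, limma adjusted p = 0.698; with the block, 0.176). The difference between the 6 h change and the 24 h change, tested over all 18 arrays, was −0.40 (SE 0.129, limma adjusted p = 0.138; with the block, SE 0.0645 and adjusted p = 0.00553). When each of the 12 arrays of these groups was left out in turn, without the block, it stayed between −0.45 and −0.31 (limma adjusted p between 0.14 and 0.272). The fit with the block was not repeated in this way. In that test 0 of the 23 probe sets passed without the block, against 3.79% of all probe sets, and 2 had an unadjusted limma p under 0.05 (14.5% over all). With the block 0 were higher and 4 lower, against 6.06% and 8.16%. The other 3 were DCX 204850_s_at (−0.42, limma adjusted p = 0.0497), MAP2 225540_at (−0.18, adjusted p = 0.069) and NEFL 221801_x_at (−0.42, adjusted p = 0.0741).

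**Figure D4:**
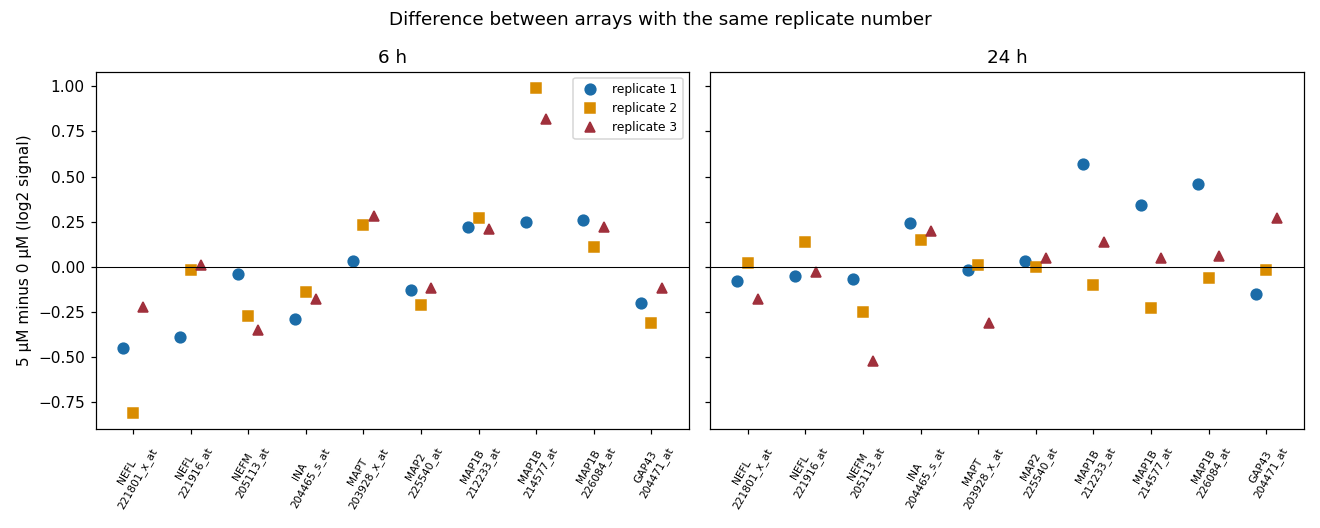
Difference in log2 signal between 5 μM and 0 μM arrays with the same replicate number (y axis) for 10 probe sets (x axis) at 6 h and 24 h. The 3 INA symbols lie at −0.29, −0.14 and −0.18 at 6 h and at 0.24, 0.15 and 0.20 at 24 h, and those of MAP1B 214577_at spread from 0.25 to 0.99 at 6 h.

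Further genes of the cytoskeleton were counted in 7 lists of 88 genes, of which 84 were measured at 6 h by 175 probe sets. Between 5 and 0 μM at 6 h, without the block, limma called 4 genes higher and 3 lower by at least 1 probe set, 4% of the probe sets against 2.98% of all tested. The median log2 difference of the brightest probe sets was −0.0695, against −0.0159 over all. Of these 7, 5 were among the 22 genes for tubulin-binding and microtubule-associated proteins (10.2% of the 49 probe sets of that list). By brightest probe sets, 0 genes of that list were higher and 2 lower. CLIP1, which tracks growing microtubule ends, differed by 0.79 by 1558924_s_at (adjusted p = 0.0803), but its brightest probe set 201975_at differed by −0.28 (limma adjusted p = 0.141). CAMSAP2, which binds microtubule minus ends, differed by 0.68 by 212763_at, which was not its brightest probe set (limma adjusted p = 0.0779). MAPRE3, an end-binding protein, differed by −0.47 (limma adjusted p = 0.0656), MAP1S, a relative of MAP1B, by −0.36 (adjusted p = 0.0883) and MAP4 212567_s_at by −0.24 (adjusted p = 0.0977). Another MAP4 probe set, 200835_s_at, differed by 0.34 (limma adjusted p = 0.39), and was called higher with the block (adjusted p = 0.0279). The others were the severing enzyme FIGN (0.29, limma adjusted p = 0.0972) and the axonal motor KIF3A (0.26, adjusted p = 0.0768). Neither the KIF3A probe set nor MAP4 212567_s_at was the brightest of its gene.

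With the block, 17 of the 84 genes were called higher and 21 lower by at least 1 probe set at 5 μM at 6 h. Some, such as CLIP1 and MAP4, count in both directions, and most genes had several probe sets. These counts have no like share over all genes. By their brightest probe sets, 5 of the 84 were higher and 16 lower, against 7.75% and 10.9% of all single probe sets. VIM, the intermediate filament gene of mesenchymal and immature cells, differed by 0.64 (limma adjusted p = 0.149; with the block, 0.055), and NES, that of neural precursors, by −0.14 (adjusted p = 0.253; with the block, 0.0879). No gene of the 7 lists was called without the block between 1 and 0 μM at 6 h or between 5 and 0 μM at 24 h. In the test of the 6 h change against the 24 h change, 3 genes were called higher and 5 lower by at least 1 probe set without the block, 4.97% of their probe sets against 3.79% of all. The higher ones included CLIP1 1558924_s_at (1.32, limma adjusted p = 0.0197) and CAMSAP2 212763_at (1.08, adjusted p = 0.0334), neither being the brightest of its gene. The lower ones included MAP1S (−0.56, limma adjusted p = 0.0132) and NES by its brightest probe set 218678_at (−0.35, adjusted p = 0.0404). Another NES probe set, 229346_at, differed by 0.80 in the other direction (limma adjusted p = 0.136, and 0.0791 with the block). The direction for NES thus depended on the probe set.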

How the data were processed

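RNA of 18 pools was hybridised to the Human Genome U133 Plus 2.0 array. The authors deposited log2 values from the Robust Multichip Average method (background correction, normalisation and median polish) in the affy library, separately for each time, so that levels at 6 and 24 h were not compared directly. The table holds all probe sets. Here, probe sets needed a gene symbol and, averaged over a time's 9 arrays, a signal above log2(40), which left 22455 at 6 h and 24307 at 24 h, without the 62 control probe sets. Symbols came from the array's annotation, in which 41091 probe sets have 1 symbol, 1801 have several and 11721 are not listed, and 41043 of the first were matched to RefSeq.

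Doses were compared within each time with limma 3.58.1 in R 4.3.3 (lmFit and eBayes), with Benjamini-Hochberg adjustment over all probe sets that remained, and an adjusted p under 0.10 was called. The change at 6 h was set against that at 24 h as a contrast over 18 arrays, from differences within each time. The labels number the replicates. Deviations from the group means correlated at 0.377 to 0.768 between same-numbered arrays at 6 h and 0.424 to 0.733 at 24 h (9 pairs each), against −0.632 to 0.0711 and −0.575 to 0.165 between other arrays (18 pairs each), so the numbers were taken to pair the arrays. The fit with this block was run as an alternative, and its values stand beside results that it changes.

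The brightest probe set of a gene is that with the highest mean. Every probe set of the 10 genes was accounted for, with values per array for the brightest and the called ones, and of the 7 lists up to 4 called genes per list and comparison, those with the smallest p, were to be named. MAP4 was named beyond this after its values were seen. Genes and lists were chosen with earlier results of these data known. Alternatives were other filters, scalings, array weights, leaving out each array and the replicate block, and those that combine the block with another choice, or leave out untreated replicates 2 and 3, were chosen after seeing the data. The R package data.table was version 1.17.8, and figures were made in Python 3.11.15 (matplotlib 3.10.9). Scripts were tested on simulated data. The number of arrays limits the precision.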

Additional observations from a re-analysis of the deposited data

Results flagged for a closer look

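INA 204465_s_at stood out because all 3 replicate numbers were lower at 5 than at 0 μM cocaine at 6 h and all 3 were higher at 24 h. The differences at 6 h were −0.29, −0.14 and −0.18 with a mean of −0.20, and those at 24 h were 0.24, 0.15 and 0.20. The difference between the changes was −0.40 (SE 0.129, limma adjusted p = 0.138; with the replicate block, 0.00553). The 3′ minus 5′ signal of ACTB also moved in opposite directions, by −0.336 at 6 h and 0.295 at 24 h (exact permutation p = 0.1 for each, the smallest possible). That of GAPDH differed by −0.0221 at 6 h and 0.018 at 24 h (exact permutation p = 0.3 and 0.4). The part of RNA quality in the INA values was not tested.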

How the results depend on the processing

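Without the replicate block, 0 of the 23 probe sets passed in every comparison, and this held for 5 against 1 μM and for all 24 h comparisons under every alternative run. For 5 against 0 μM at 6 h, the replicate block gave 9, array weights 4 (2 higher, 2 lower) and leaving out 1 array 0 to 1, with 1 without untreated replicate 1. The replicate block gave 7 with median centring (2 higher, 5 lower), 7 with quantile normalization (5 higher, 2 lower), 3 at an adjusted p under 0.05, 2 without untreated replicates 2 and 3, and 0 to 9 when 1 array was left out. It gave 9 without untreated replicate 1, 2 without untreated replicate 3, 8, 4 and 5 without 1 μM replicates 1, 2 and 3, 5 without 5 μM replicate 1, and 0 without each of the other arrays. For 1 against 0 μM at 6 h, leaving out 1 array gave 0 to 1, and the replicate block gave 5, 5 with median centring, 4 with quantile normalization, 1 at an adjusted p under 0.05, 2 without untreated replicates 2 and 3, and 0 to 9 when 1 array was left out. For the 6 h change against the 24 h change, the replicate block gave 4, and leaving out 1 array gave 0 to 1. Among 161 differences that were not called, 99 changed sign under at least 1 alternative without the block, the largest being 0.69 for MAP1B 214577_at, and 31 did with it. The causes were not tested. With 3 pools a group, a difference that was not called does not show equality, and differences inside its 95% interval remain possible.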
